A study of Mus musculus with 18 samples.

Results

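Amino acid transporters were followed in the cerebellum of mice that lack GTPBP1 or GTPBP2. The members are 10 genes chosen by name to compare carriers of cationic amino acids, neutral amino acids and cystine, *Slc7a1*, *Slc7a2*, *Slc7a3*, *Slc7a5*, *Slc7a11*, *Slc3a2*, *Slc1a4*, *Slc1a5*, *Slc38a2* and *Slc6a9*, out of 54752 genes in the RNA-seq files and 22523 genes in the ribosome footprint files. Each of the 10 was found once in both kinds of file and passed the filter on low counts in every comparison. RNA-seq reports the amount of each mRNA, and ribosome profiling sequences the mRNA fragments that ribosomes cover, so that footprints in the coding sequence (CDS) depend both on the amount of an mRNA and on how many ribosomes each copy carries. The 18 libraries hold 3 mice for each assay of B6J, B6J.*Gtpbp1*-/- and B6J-*Gtpbp2*-/- cerebellum at P21, and 1 cerebellum went into each footprint library. All 3 groups are on the C57BL/6J (B6J) strain, and B6J controls as well as both mutants carry the strain's mutation in the *n-Tr20* gene for an arginine tRNA with a UCU anticodon. The B6J.*Gtpbp1*-/- allele lacks exon 4 and some of exon 3 through an inserted PGK-Neo, and the B6J-*Gtpbp2*-/- allele is the *nmf205* point mutation. The absence of either protein is thus studied on top of the tRNA mutation, and no group without it was used here. Males and females were both included. The RNA libraries are labelled Batch 1 and the footprint libraries Batch 2, so assay and batch cannot be told apart.

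Amino acids cross cell membranes through solute carriers, each with its own range of substrates. SLC7A1, SLC7A2 and SLC7A3 take up the cationic amino acids arginine, lysine and ornithine. SLC7A5 exchanges large neutral amino acids and SLC7A11 exchanges cystine for glutamate, and both reach the plasma membrane bound to the heavy chain SLC3A2. SLC1A4 and SLC1A5 exchange small neutral amino acids, SLC38A2 carries neutral amino acids with sodium, and SLC6A9 removes glycine from the extracellular space. Several of these genes are known targets of the transcription factor ATF4, which is translated more when amino acids run short.

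The RNA libraries held 37794333 to 52114145 counts (median 49293902) and the footprint libraries 3630823 to 10442573 (median 6281637), so footprint values of the less abundant members carry more counting error. The targeted genes were examined first. *Gtpbp1* RNA was 70.97, 77.8 and 66.7 CPM in the B6J libraries, 44, 41.7 and 43.9 in B6J.*Gtpbp1*-/- and 58.7, 72.2 and 65.7 in B6J-*Gtpbp2*-/- (CPM, counts scaled to library size with TMM factors). *Gtpbp1* footprints were 73.6, 117 and 84.9 CPM in the B6J libraries, 32, 25.5 and 35.6 in B6J.*Gtpbp1*-/- and 79.4, 66.8 and 62.1 in B6J-*Gtpbp2*-/-. The B6J.*Gtpbp1*-/- libraries lay below the others in both assays, with log2 fold changes of -0.73 ± 0.082 (SE) in RNA and -1.56 ± 0.227 in footprints (edgeR adjusted p = 5.94e-05 and 0.00676). *Gtpbp2* RNA was 85.9, 74.03 and 88.1 CPM in the B6J libraries, 109, 100.5 and 104 in B6J.*Gtpbp1*-/- and 65.5, 75.4 and 72.7 in B6J-*Gtpbp2*-/-. *Gtpbp2* footprints were 44.8, 36.1 and 38.5 CPM in the B6J libraries, 36.2, 43.3 and 58.3 in B6J.*Gtpbp1*-/- and 28.9, 26.4 and 7.54 in B6J-*Gtpbp2*-/-. The footprints of the B6J-*Gtpbp2*-/- libraries lay below every B6J library, with B6J-*Gtpbp2*-/- library 3 lowest, but the adjusted p was 0.321 (edgeR), and *Gtpbp2* RNA overlapped between these groups (-0.22 ± 0.093, adjusted p = 0.19). Per length, *Gtpbp2* stood at 114, 91.7 and 99.0 TPM in B6J and 127, 145 and 151 TPM in B6J-*Gtpbp2*-/-, so the direction in RNA depended on the measure. A point mutation need not lower the count of a gene, so the transcripts of *Gtpbp2* were read as well. The protein-coding transcript Gtpbp2-201 was 31.3, 29.6 and 34.2 TPM in B6J and 18.2, 23.5 and 22.5 TPM in B6J-*Gtpbp2*-/-. The retained-intron transcript Gtpbp2-212 was 7.41, 9.46 and 5.03 TPM in B6J and 24.6, 22.3 and 21.2 TPM in B6J-*Gtpbp2*-/-. These transcripts set the B6J-*Gtpbp2*-/- libraries apart from B6J without overlap, although they were not tested. Gtpbp2-212 lay above every B6J library in B6J.*Gtpbp1*-/- as well (13.6, 11.9 and 10.1 TPM). The protein-coding transcript Gtpbp2-208 went the other way from Gtpbp2-201, at 6.71, 5.61 and 7.15 TPM in B6J and 8.38, 11.9 and 13.4 TPM in B6J-*Gtpbp2*-/-. *Gtpbp2* RNA was also 1.26-fold higher in B6J.*Gtpbp1*-/- than in B6J (adjusted p = 0.0154).

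The tissue label was checked against marker genes of cerebellar cell types. In B6J the 5 Purkinje cell markers summed to 4533 to 5593 TPM (a level per transcript length and library size) and the 7 granule neuron markers to 3398 to 3518 TPM, both typical of cerebellum, with *Pcp2* and *Cbln1* the most abundant genes of these lists. The muscle list summed to 2.64 to 4.35 TPM in B6J, while the choroid plexus gene *Ttr* ranged from 105 to 3618 TPM over the 9 RNA libraries and overlapped between the genotypes. No marker was at 0 in every RNA library. Sums of the granule neuron markers were 2240, 2195 and 2571 TPM in B6J.*Gtpbp1*-/- and 2377, 2550 and 2196 TPM in B6J-*Gtpbp2*-/-. Every mutant library lay below every B6J library, and 7 of 7 granule markers in B6J.*Gtpbp1*-/- and 6 of 7 in B6J-*Gtpbp2*-/- (all but *Zic1*) were called lower in RNA. Microglia markers summed to 55.2, 56.2 and 60.3 TPM in B6J mice, 133, 115 and 119 TPM in B6J.*Gtpbp1*-/- and 118, 118 and 125 TPM in B6J-*Gtpbp2*-/-. The microglia genes *Cx3cr1*, *Csf1r* and *C1qa*, 3 of 5, were called higher in both mutants, with *C1qa* the most abundant. Endothelial markers summed to 143, 143 and 131 TPM in B6J mice, 190.4, 218 and 212 TPM in B6J.*Gtpbp1*-/- and 188, 247 and 262 TPM in B6J-*Gtpbp2*-/-, with *Slco1a4* the most abundant. Of 6 endothelial markers 4 were called higher in B6J.*Gtpbp1*-/- (*Cldn5*, *Flt1*, *Kdr*, *Slco1a4*) and 3 in B6J-*Gtpbp2*-/- (*Cldn5*, *Pecam1*, *Slco1a4*). Of 5 Purkinje cell markers 2 were called lower in B6J.*Gtpbp1*-/- (*Car8*, *Pvalb*) and 3 in B6J-*Gtpbp2*-/- (these and *Calb1*). Of 5 oligodendrocyte markers (most abundant *Mbp*) 5 were lower in B6J.*Gtpbp1*-/- and 0 in B6J-*Gtpbp2*-/- (edgeR, with 0 of 5 at an unadjusted p below 0.05 and 0 called by DESeq2), and of 6 astrocyte markers (most abundant *Aldoc*) *Gfap* was higher and *Hopx* and *Aldh1l1* lower in both mutants. Red blood cell markers (most abundant *Hbb-bs*) summed to 3710, 2121 and 2789 TPM in B6J mice, 5378, 4645 and 5809 TPM in B6J.*Gtpbp1*-/- and 988, 4490 and 2629 TPM in B6J-*Gtpbp2*-/-, with *Alas2*, 1 of 3, called higher in B6J.*Gtpbp1*-/-. These markers other than the most abundant of each list are named after their values were seen.

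Footprints of the marker genes did not always move as their RNA did. Oligodendrocyte marker footprints summed to 9664, 8764 and 12960 CPM in B6J mice, 13140, 11220 and 10030 CPM in B6J.*Gtpbp1*-/- and 12210, 13170 and 11730 CPM in B6J-*Gtpbp2*-/-. EdgeR and DESeq2 called 0 of 5 in either mutant (0 at an unadjusted edgeR p below 0.05). In B6J.*Gtpbp1*-/-, where 5 of 5 were lower in RNA, 4 of 5 footprint log2 fold changes were above 0. Footprints of the granule neuron markers summed to 2822, 4769 and 3527 CPM in B6J mice, 2687, 1913 and 2764 CPM in B6J.*Gtpbp1*-/- and 1782, 1491 and 1659 CPM in B6J-*Gtpbp2*-/-, with 0 of 7 called in B6J.*Gtpbp1*-/- (edgeR and DESeq2, with 4 at an unadjusted p below 0.05) and 5 lower in B6J-*Gtpbp2*-/-. Purkinje cell markers summed to 10240, 6674 and 13660 CPM in B6J mice, 12800, 13730 and 7518 CPM in B6J.*Gtpbp1*-/- and 15890, 15780 and 13590 CPM in B6J-*Gtpbp2*-/-. Their log2 fold changes in B6J-*Gtpbp2*-/- were above 0 for 5 of 5, opposite to RNA, with 0 called by edgeR, 2 at an unadjusted p below 0.05 and *Itpr1* and *Pvalb* called higher by DESeq2. Fibroblast markers (most abundant *Dcn*) summed to 332, 745 and 938 CPM in B6J mice, 1736, 1437 and 2729 CPM in B6J.*Gtpbp1*-/- and 667, 1039 and 533 CPM in B6J-*Gtpbp2*-/-, with 0 of 4 called in B6J.*Gtpbp1*-/- by edgeR, 4 at an unadjusted p below 0.05 and *Col1a2* called by DESeq2. Choroid plexus markers (most abundant *Ttr*) set single libraries far apart, at 5526, 3688 and 52.3 CPM in B6J mice, 13620, 183 and 11970 CPM in B6J.*Gtpbp1*-/- and 469, 9405 and 9542 CPM in B6J-*Gtpbp2*-/-. The genotypes overlapped, with 0 of 3 called in either mutant (edgeR and DESeq2, 0 at an unadjusted p below 0.05). Astrocyte markers summed to 5005, 3854 and 6894 CPM in B6J mice, 5873, 6935 and 5827 CPM in B6J.*Gtpbp1*-/- and 7097, 6902 and 7378 CPM in B6J-*Gtpbp2*-/-, with 0 of 6 called by edgeR in either mutant (2 and 3 at an unadjusted p below 0.05) and *Gfap* called higher in both by DESeq2. Muscle markers (most abundant *Acta1*) summed to 5.59, 13.0 and 10.5 CPM in B6J mice, 22.5, 13.9 and 35.9 CPM in B6J.*Gtpbp1*-/- and 3.28, 6.88 and 2.80 CPM in B6J-*Gtpbp2*-/-. EdgeR called 0 of 3 in B6J.*Gtpbp1*-/- and 0 of 1 tested in B6J-*Gtpbp2*-/- (2 and 1 at an unadjusted p below 0.05), and DESeq2 called *Myh1* higher in B6J.*Gtpbp1*-/- and *Acta1* lower in B6J-*Gtpbp2*-/-. Red blood cell markers summed to 514, 353 and 764 CPM in B6J mice, 1761, 618 and 1042 CPM in B6J.*Gtpbp1*-/- and 728, 2537 and 615 CPM in B6J-*Gtpbp2*-/-, with 0 of 3 called by edgeR in either (1 and 0 at an unadjusted p below 0.05) and *Hbb-bs* called higher by DESeq2 in B6J.*Gtpbp1*-/-. Microglia markers summed to 141, 167 and 140.3 CPM in B6J mice, 349.8, 205 and 399.6 CPM in B6J.*Gtpbp1*-/- and 202, 208 and 270.1 CPM in B6J-*Gtpbp2*-/-, and *C1qa* was called higher in both mutants. By edgeR 5 and 2 of 5 had an unadjusted p below 0.05, and DESeq2 called 3 and 1 higher. Endothelial markers summed to 457, 297 and 494 CPM in B6J mice, 1031, 731 and 527 CPM in B6J.*Gtpbp1*-/- and 841, 722 and 775 CPM in B6J-*Gtpbp2*-/-, with *Cldn5* called higher in both mutants and *Cdh5* in B6J-*Gtpbp2*-/-. Of these 6 markers, 4 and 6 had an unadjusted edgeR p below 0.05, and DESeq2 called 3 and 5 higher. Markers other than the most abundant of each list are again named after their values were seen. In these bulk libraries a change in the number of cells of a type and a change in RNA per cell cannot be told apart, and the part of these markers in the results on transporters was not tested.

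Levels per length placed the members over a wide range in B6J. *Slc3a2* was the most abundant at 144 ± 10.5 TPM (mean ± SD, n = 3), followed by *Slc38a2* at 101 ± 11.2, *Slc6a9* at 55.8 ± 9.56, *Slc7a5* at 38.5 ± 6.97 and *Slc1a4* at 17.3 ± 1.63 TPM. *Slc7a1* (12.7 ± 2.08 TPM), *Slc7a2* (11.1 ± 0.554 TPM) and *Slc7a11* (10.7 ± 0.664 TPM) overlapped between libraries and cannot be ordered. *Slc7a3* at 4.22 ± 0.747 TPM and *Slc1a5* at 1.38 ± 0.597 TPM were the least abundant members. In RNA of both mutants *Slc7a3* moved from place 9 to place 4, at 129.6 ± 14.5 TPM in B6J.*Gtpbp1*-/- and 133 ± 21.2 TPM in B6J-*Gtpbp2*-/-. Its mean lay below those of *Slc3a2*, *Slc38a2* and *Slc7a5* and above those of *Slc6a9* and the remaining members. In B6J-*Gtpbp2*-/- its range (108.8 to 149.7 TPM) overlapped that of *Slc7a5* (148.0 to 175.6 TPM). These levels include retained-intron transcripts. With protein-coding transcripts alone, *Slc7a3* overlapped *Slc6a9* in B6J.*Gtpbp1*-/- (68.6 to 86.2 and 63.7 to 74.4 TPM). It also did so in B6J-*Gtpbp2*-/- (70.6 to 87.5 and 57.9 to 82.0 TPM). Among the genes detected in the same genotype (32368 in B6J mice), *Slc7a3* stood at percentile 58.5 in B6J mice, 96.3 in B6J.*Gtpbp1*-/- and 96.5 in B6J-*Gtpbp2*-/-. *Slc38a2* (172 ± 17.6 TPM in B6J.*Gtpbp1*-/-, 169 ± 14.2 TPM in B6J-*Gtpbp2*-/-) and *Slc7a5* (164 ± 16.2 and 166 ± 15.4 TPM) overlapped in both mutants, and *Slc3a2* remained highest at 414 ± 51.0 and 394 ± 61.4 TPM. Footprints per kilobase of CDS, scaled as CPM, gave a similar order in B6J with some neighbours overlapping, from *Slc3a2* at 209 ± 34.2 to *Slc7a3* at 8.42 ± 2.75 and *Slc1a5* at 3.23 ± 1.38. By footprints *Slc7a3* stood at place 5 in B6J.*Gtpbp1*-/- (126 ± 18.8) and place 6 in B6J-*Gtpbp2*-/- (93.8 ± 5.48), below *Slc6a9* in both (147 ± 32.2 and 107 ± 1.98), though its range overlapped those of *Slc6a9*, *Slc7a1* and *Slc1a4* in B6J.*Gtpbp1*-/-.

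**Figure D1:**
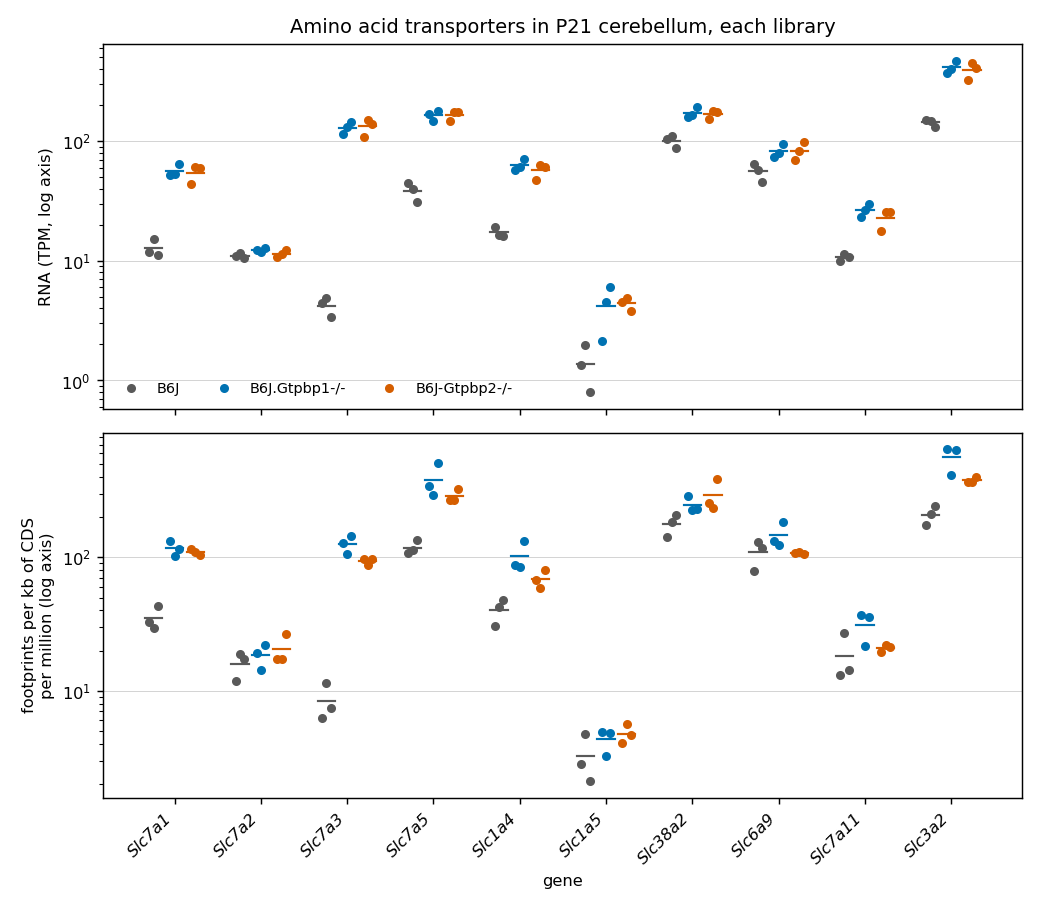
Level of each member in every library, as RNA in TPM (top) and footprints per kilobase of CDS, scaled as CPM (bottom), on log axes, with 3 libraries (points) and their mean (line) for each genotype. *Slc7a3* RNA was 3.39 to 4.85 TPM in B6J and 109 to 149.7 TPM in the mutants, while *Slc7a2* RNA stayed within 10.5 to 12.8 TPM in all 9 libraries.

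The comparison of each mutant with B6J asks how loss of each GTPase changes these mRNAs and their footprints. In B6J.*Gtpbp1*-/- RNA, 8 of 10 members were called higher (edgeR, adjusted p of at most 0.05 over all 24577 genes tested), against 5.9% of all genes tested, and 0 were lower, against 7.93%. The 2 that were not called, *Slc7a2* and *Slc1a5*, had unadjusted p of 0.926 and 0.0502, and DESeq2 likewise called 0 members lower. The median log2 fold change of the 10 members was 1.27, beside 0.03 over all genes. With B6J.*Gtpbp1*-/- library 2 left out, the genes called numbered 1890 in place of 3398. In B6J-*Gtpbp2*-/- RNA, 7 of 10 members were higher, against 3.61% of 24859 genes tested, and 0 were lower by edgeR or DESeq2, against 5.02%, with *Slc6a9* now also short of the threshold. Members had a median log2 fold change of 1.13, beside 0.03 over all genes. Of 2146 genes called in this comparison, 953 were called without B6J library 1, 1069 without B6J library 2, 1358 without B6J-*Gtpbp2*-/- library 2 and 979 without B6J-*Gtpbp2*-/- library 3, while the members called higher stayed at 7 or 8 of 10 with any library left out. Both comparisons use the same B6J libraries and so are not independent of each other.

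In footprints, *Slc7a1*, *Slc7a3*, *Slc7a5*, *Slc1a4* and *Slc3a2* were called higher in B6J.*Gtpbp1*-/-, 5 of 10 members against 0.573% of 13956 genes tested, and 0 were lower (edgeR and DESeq2), against 0.172%. The same 5 members were higher in B6J-*Gtpbp2*-/-, against 1.28% of 13797 genes tested, and 0 were lower (edgeR and DESeq2), against 1.67%. The members' median log2 fold change was 1.06 for B6J.*Gtpbp1*-/- and 0.74 in B6J-*Gtpbp2*-/-, beside 0.01 and 0.005 over all genes. Unadjusted p were below 0.05 for 7 members in B6J.*Gtpbp1*-/- and 6 in B6J-*Gtpbp2*-/-, beside 1763 of 13956 and 2355 of 13797 genes tested. The footprint counts rest on single libraries more than the RNA counts. Without B6J footprint library 1, the members called higher in B6J.*Gtpbp1*-/- were *Slc7a1* and *Slc7a3*, 2 of 10, and those called in B6J-*Gtpbp2*-/- were 3 of 10. The count for B6J-*Gtpbp2*-/- was 3 members also without B6J-*Gtpbp2*-/- library 1. The total of 104 genes called in B6J.*Gtpbp1*-/- became 22 without B6J library 1, 41 without B6J library 2, 186 without B6J library 3, 37 without B6J.*Gtpbp1*-/- library 1 and 182 without B6J.*Gtpbp1*-/- library 3. For B6J-*Gtpbp2*-/-, the total of 406 became 186 without B6J library 2, 619 without B6J library 3, 106 without B6J-*Gtpbp2*-/- library 1 and 151 without B6J-*Gtpbp2*-/- library 2.

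**Figure D2:**
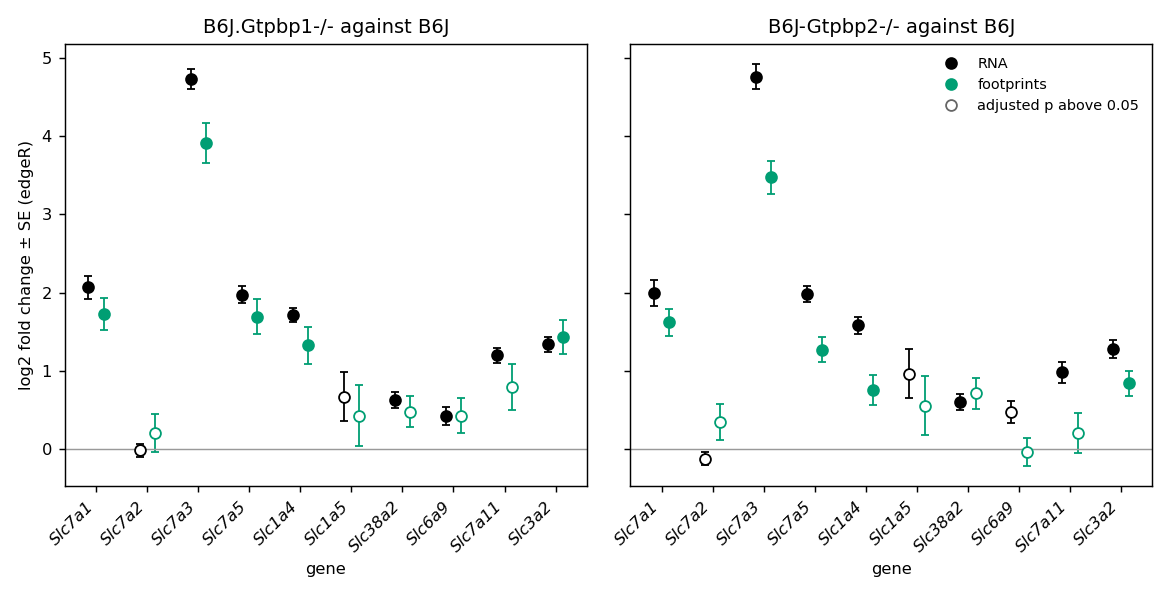
Log2 fold change ± SE (edgeR, n = 3 libraries a group) of each member in RNA (black) and footprints (green), for B6J.*Gtpbp1*-/- (left) and B6J-*Gtpbp2*-/- (right) against B6J, with open points where the adjusted p was above 0.05. *Slc7a3* stood highest in each panel, at 4.73 and 4.76 in RNA and 3.91 and 3.47 in footprints.

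Among the cationic transporters *Slc7a3* and *Slc7a1* rose and *Slc7a2* was not called. *Slc7a3*, on the X chromosome, encodes a transporter found mainly in brain. Its RNA was 5.95, 6.28 and 4.67 CPM in the B6J libraries, 131, 150 and 167 in B6J.*Gtpbp1*-/- and 122, 172 and 163 in B6J-*Gtpbp2*-/-. Its footprints were 11.6, 21.4 and 13.8 CPM in the B6J libraries, 238, 198 and 267 in B6J.*Gtpbp1*-/- and 179, 162 and 180.4 in B6J-*Gtpbp2*-/-. Each mutant library was several times above the highest B6J library in both assays, with no overlap. RNA rose 26.5-fold in B6J.*Gtpbp1*-/- (log2 4.73 ± 0.129, edgeR adjusted p = 1.23e-09) and 27.03-fold in B6J-*Gtpbp2*-/- (log2 4.76 ± 0.162, adjusted p = 6.64e-07). Footprints rose 15.03-fold in B6J.*Gtpbp1*-/- (log2 3.91 ± 0.255, adjusted p = 9e-06) and 11.1-fold in B6J-*Gtpbp2*-/- (log2 3.47 ± 0.216, adjusted p = 6.21e-07). Sex was not balanced between the groups. Y-linked reads, above 170 unscaled CPM in B6J RNA library 2, B6J.*Gtpbp1*-/- RNA libraries 1 and 2, B6J footprint libraries 1 and 2 and B6J.*Gtpbp1*-/- footprint library 1, were at most 4.30 CPM elsewhere, so B6J and B6J.*Gtpbp1*-/- held libraries of both kinds and every B6J-*Gtpbp2*-/- library was low in Y-linked reads. With Y-linked reads as a covariate the *Slc7a3* RNA change was 4.74 for B6J.*Gtpbp1*-/- and 4.84 in B6J-*Gtpbp2*-/-.

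*Slc7a1* encodes the widely expressed transporter for cationic amino acids. Its RNA was 48.7, 63.2 and 42.3 CPM in the B6J libraries, 199.6, 203 and 244 in B6J.*Gtpbp1*-/- and 167, 229 and 219 in B6J-*Gtpbp2*-/-. Its footprints were 61.3, 55.1 and 80.9 CPM in the B6J libraries, 248, 189.9 and 215 in B6J.*Gtpbp1*-/- and 215, 205 and 193 in B6J-*Gtpbp2*-/-. No mutant library overlapped a B6J library in either assay. RNA was 4.195-fold higher in B6J.*Gtpbp1*-/- (log2 2.07 ± 0.144, adjusted p = 1.79e-05) and 3.99-fold higher in B6J-*Gtpbp2*-/- (log2 2.00 ± 0.165, adjusted p = 0.000266). Footprints were 3.31-fold and 3.08-fold higher (log2 1.73 ± 0.203 and 1.62 ± 0.172, adjusted p = 0.0017 and 0.000192). *Slc7a2*, known as an inducible transporter that supplies arginine to nitric oxide synthesis, lay between 38.03 and 45.9 CPM in all 9 RNA libraries. Its footprints lay between 25.5 and 57.3 CPM. In CPM the genotypes overlapped in both assays, whereas in TPM *Slc7a2* was 10.5 to 11.6 in B6J and 11.9 to 12.8 in B6J.*Gtpbp1*-/-, without overlap. The tests on counts gave RNA log2 fold changes of -0.01 ± 0.083 and -0.12 ± 0.087 (adjusted p = 0.97 and 0.493).

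The make-up of the cationic transporters changed accordingly. Together *Slc7a1*, *Slc7a2* and *Slc7a3* summed to a TPM of 27.2, 31.6 and 25.2 in B6J mice, 178.6, 196.5 and 220.7 in B6J.*Gtpbp1*-/- and 163, 221.5 and 211 in B6J-*Gtpbp2*-/-. *Slc7a3* was 15.0 ± 1.40% of this sum in B6J mice, 65.2 ± 1.39% in B6J.*Gtpbp1*-/- and 66.8 ± 0.741% in B6J-*Gtpbp2*-/-. *Slc7a2* went from 39.7 ± 2.58% to 6.25 ± 0.563% and 5.84 ± 0.725%. The shares of each group of 3 libraries did not overlap between B6J and either mutant. Shares of footprint density shifted to a lesser extent, with *Slc7a3* at 14.2 ± 4.44% in B6J mice, 48.3 ± 2.70% in B6J.*Gtpbp1*-/- and 41.9 ± 1.06% in B6J-*Gtpbp2*-/-, and *Slc7a1* was the largest share in every B6J-*Gtpbp2*-/- footprint library.

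**Figure D3:**
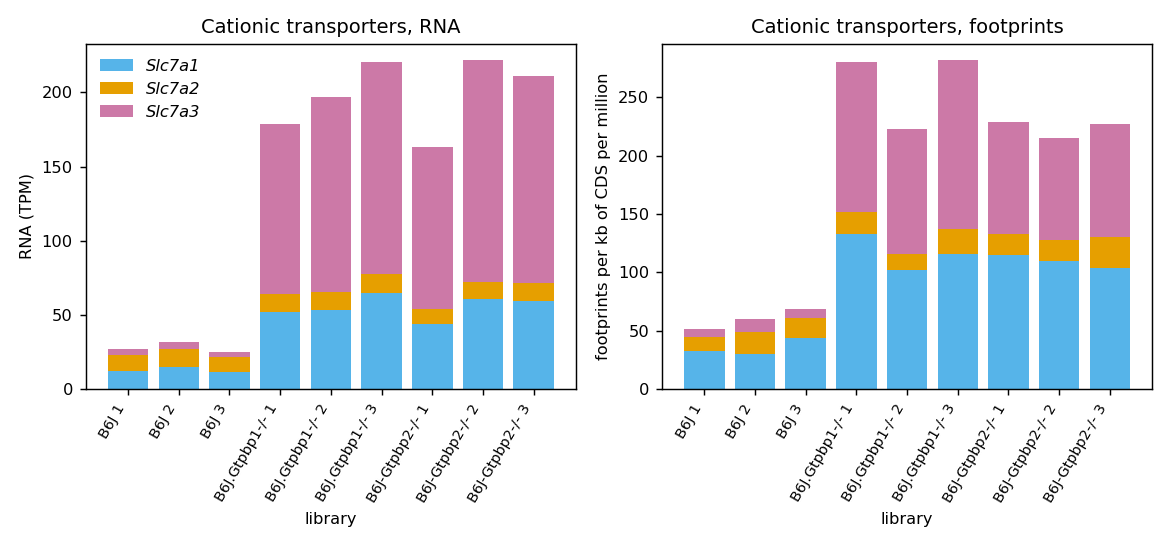
Summed level of *Slc7a1*, *Slc7a2* and *Slc7a3* in each library, in TPM for RNA (left) and footprints per kilobase of CDS, scaled as CPM (right), stacked from 0 by gene. The RNA sum was 25.2 to 31.6 TPM in B6J and 163 to 221.5 TPM in the mutants, mostly through *Slc7a3*.

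*Slc7a3* RNA was spread over several annotated transcripts, 7 in all, whose estimates kallisto divides among overlapping models. The protein-coding transcripts summed to 3.67, 4.001 and 2.11 TPM in B6J mice, 68.6, 70.5 and 86.2 TPM in B6J.*Gtpbp1*-/- and 70.6, 87.5 and 76.8 TPM in B6J-*Gtpbp2*-/-. Its retained-intron transcripts summed to 0.739, 0.852 and 1.29 TPM in B6J mice, 45.2, 60.7 and 57.0 TPM in B6J.*Gtpbp1*-/- and 38.2, 62.2 and 62.5 TPM in B6J-*Gtpbp2*-/-. Both kinds lay higher in every mutant library than in any B6J library. The retained-intron transcript Slc7a3-205 made up 22.9 ± 13.0% of the gene in B6J mice, 37.1 ± 2.84% in B6J.*Gtpbp1*-/- and 34.8 ± 5.37% in B6J-*Gtpbp2*-/-, a share whose ranges overlapped between B6J and each mutant. All retained-intron transcripts together made up 16.8, 17.6 and 37.9% of the gene in B6J mice, 39.5, 46.3 and 39.8% in B6J.*Gtpbp1*-/- and 35.1, 41.6 and 44.9% in B6J-*Gtpbp2*-/-, so that B6J.*Gtpbp1*-/- lay above B6J and B6J-*Gtpbp2*-/- overlapped it, a difference that was not tested. With protein-coding transcripts alone the log2 fold change was 4.34 for B6J.*Gtpbp1*-/- and 4.41 in B6J-*Gtpbp2*-/-. *Slc7a1* and *Slc7a5* kept their leading transcripts. Slc7a1-201 held 90.0 ± 5.70%, 94.6 ± 0.448% and 93.2 ± 2.83% of *Slc7a1* in B6J, B6J.*Gtpbp1*-/- and B6J-*Gtpbp2*-/-, and Slc7a5-201 held 89.5 ± 5.26%, 91.7 ± 1.40% and 91.2 ± 0.998% of *Slc7a5*. The leading transcripts of *Slc1a4* and *Slc1a5* varied too widely between libraries to compare, with Slc1a4-201 at 24.3 to 72.6% and Slc1a5-201 at 22.1 to 100% in B6J.

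Of the 5 transporters for neutral amino acids, *Slc7a5*, *Slc1a4* and *Slc38a2* rose in RNA in both mutants and *Slc6a9* in B6J.*Gtpbp1*-/-. *Slc7a5*, which encodes the light chain of the large neutral amino acid exchanger of the blood-brain barrier and of growing cells, had RNA of 84.4, 80.8 and 65.4 CPM in the B6J libraries, 308, 269 and 328 in B6J.*Gtpbp1*-/- and 275, 319.9 and 317 in B6J-*Gtpbp2*-/-. Its footprints were 165, 173 and 207 CPM in the B6J libraries, 525, 451 and 788 in B6J.*Gtpbp1*-/- and 416, 414 and 497 in B6J-*Gtpbp2*-/-. Mutant and B6J libraries did not overlap. RNA rose 3.92-fold in B6J.*Gtpbp1*-/- (adjusted p = 1.88e-07) and 3.95-fold in B6J-*Gtpbp2*-/- (adjusted p = 2.73e-06), and footprints 3.24-fold and 2.42-fold (adjusted p = 0.00409 and 0.000728). Without B6J footprint library 1 the adjusted p in B6J.*Gtpbp1*-/- was 0.0525. *Slc1a4*, which encodes an exchanger of serine, alanine and threonine, had RNA of 44.1, 38.2 and 38.1 CPM in the B6J libraries, 122, 127 and 146 in B6J.*Gtpbp1*-/- and 99.96, 132 and 129 in B6J-*Gtpbp2*-/-. Footprints of *Slc1a4* were 49.2, 67.6 and 76.9 CPM in the B6J libraries, 141, 135 and 211 in B6J.*Gtpbp1*-/- and 109, 94.3 and 127 in B6J-*Gtpbp2*-/-. The groups were again apart, with RNA 3.28-fold (log2 1.71 ± 0.092, adjusted p = 1.73e-07) and 2.995-fold higher (log2 1.58 ± 0.113, adjusted p = 1.98e-05). Its footprints were 2.51-fold higher in B6J.*Gtpbp1*-/- (adjusted p = 0.0197) and 1.69-fold higher in B6J-*Gtpbp2*-/- (adjusted p = 0.0442). These footprint calls were near the threshold. In B6J.*Gtpbp1*-/- the adjusted p was 0.154 without B6J library 1 and 0.082 without B6J library 2. For B6J-*Gtpbp2*-/- it was 0.167 without B6J library 1, 0.11 without B6J library 2 and 0.092 over all 9 libraries. Without B6J-*Gtpbp2*-/- libraries 1, 2 and 3 it was 0.151, 0.0708 and 0.132. With Y-linked reads as a covariate it was 0.0624 for B6J.*Gtpbp1*-/- and 0.567 for B6J-*Gtpbp2*-/-, within ranges over the alternatives of 3.35e-05 to 0.154 and 0.012 to 0.567. The B6J-*Gtpbp2*-/- call was lost in 7 of 13 alternatives.

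*Slc38a2*, whose transporter brings glutamine and alanine into cells, was among the more abundant members and changed less. Its RNA was 241, 259 and 208 CPM in the B6J libraries, 339, 350 and 408 in B6J.*Gtpbp1*-/- and 325, 376 and 375 in B6J-*Gtpbp2*-/-. Its footprints were 213, 276 and 312 CPM in the B6J libraries, 432, 341 and 347 in B6J.*Gtpbp1*-/- and 389, 356 and 583 in B6J-*Gtpbp2*-/-. Every mutant library exceeded every B6J library in both assays, although some by little. RNA rose 1.55-fold in B6J.*Gtpbp1*-/- (adjusted p = 0.000937) and 1.52-fold in B6J-*Gtpbp2*-/- (adjusted p = 0.00377), whereas the footprint changes of log2 0.48 ± 0.194 and 0.72 ± 0.2 did not pass (adjusted p = 0.309 and 0.0718). In B6J-*Gtpbp2*-/- the adjusted p for its footprints was 0.0382 without B6J library 3 and 0.0216 by DESeq2, within a range of 0.0216 to 0.632 over the alternatives. *Slc6a9*, the glycine transporter of glia, had RNA between 68.2 and 97.7 CPM in B6J mice, 109 and 125 CPM in B6J.*Gtpbp1*-/- and 103 and 136 CPM in B6J-*Gtpbp2*-/-. The ranges did not overlap but lay close together. RNA rose 1.34-fold in B6J.*Gtpbp1*-/- (adjusted p = 0.0379) and was not called in B6J-*Gtpbp2*-/- (log2 0.48 ± 0.14, adjusted p = 0.0669). The B6J.*Gtpbp1*-/- call was lost without B6J library 2 (adjusted p = 0.0561), without B6J.*Gtpbp1*-/- library 1, 2 or 3 (adjusted p = 0.0687, 0.0985 and 0.136), with the Y-linked covariate (0.0805), with the length offset (0.0867) and by limma (0.053), within a range of 1.94e-05 to 0.136 over the alternatives. The B6J-*Gtpbp2*-/- change was called without B6J-*Gtpbp2*-/- library 1 (0.0393), by DESeq2 (0.00744), with upper quartile scaling (0.0498), with no filter (0.0346) and over all 9 libraries (0.0315), within a range of 0.00744 to 0.215. *Slc6a9* RNA therefore does not separate the mutants. Footprints of *Slc6a9* overlapped between the genotypes (225 to 392 CPM in the mutants, 169 to 278 CPM in B6J). *Slc1a5*, which encodes a glutamine exchanger, was scarce in every library, with 1.13 to 2.68 CPM in B6J mice, 2.69 to 3.58 in B6J.*Gtpbp1*-/- and 3.41 to 4.83 in B6J-*Gtpbp2*-/- (counts of 57 to 252). Although these RNA ranges did not overlap, the changes of log2 0.67 ± 0.312 and 0.97 ± 0.317 were not called (adjusted p = 0.191 and 0.0867), although 5 of 16 alternatives called the change in B6J-*Gtpbp2*-/-, namely DESeq2 (adjusted p = 0.0274), no filter (0.0187), all 9 libraries (0.0446), the length offset (0.0278) and limma (0.0405), within a range of 0.0187 to 0.286. The values of *Slc1a5* moved with the measure, from -0.18 to 1.44 over the alternatives in B6J.*Gtpbp1*-/-.

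The heavy chain and the cystine exchanger rose in RNA in both mutants. *Slc3a2* RNA was 124, 125 and 112 CPM in the B6J libraries, 278, 289 and 349.9 in B6J.*Gtpbp1*-/- and 237, 335 and 306 in B6J-*Gtpbp2*-/-. *Slc3a2* footprints were 295, 356 and 411 CPM in the B6J libraries, 1090, 699.6 and 1086 in B6J.*Gtpbp1*-/- and 619, 625 and 683 in B6J-*Gtpbp2*-/-. The mutant libraries lay above B6J in both assays. RNA of the heavy chain rose 2.54-fold in B6J.*Gtpbp1*-/- (adjusted p = 1.43e-06) and 2.43-fold in B6J-*Gtpbp2*-/- (adjusted p = 0.000107), and footprints 2.71-fold and 1.798-fold (adjusted p = 0.00829 and 0.00947). The footprint adjusted p was 0.094 for B6J.*Gtpbp1*-/- and 0.0635 in B6J-*Gtpbp2*-/- without B6J library 1, and 0.0593 in B6J-*Gtpbp2*-/- without B6J-*Gtpbp2*-/- library 1. With Y-linked reads as a covariate it was 0.318 in B6J-*Gtpbp2*-/-, within a range of 6.64e-05 to 0.318 over the alternatives. *Slc7a11* RNA was 42.6, 49.7 and 46.1 CPM in the B6J libraries, 92.7, 107 and 119 in B6J.*Gtpbp1*-/- and 70.5, 102 and 102 in B6J-*Gtpbp2*-/-. *Slc7a11* footprints were 20.1, 41.2 and 21.8 CPM in the B6J libraries, 56.5, 33.2 and 54.3 in B6J.*Gtpbp1*-/- and 30, 33.8 and 32.5 in B6J-*Gtpbp2*-/-. RNA was separate between B6J and the mutants, with 2.3-fold (adjusted p = 3.69e-06) and 1.98-fold (adjusted p = 0.00151) higher values, but B6J footprint library 2 lay among or above the mutant libraries. The footprint changes of log2 0.80 ± 0.298 and 0.20 ± 0.254 were not called (adjusted p = 0.265 and 0.739). Levels of the heavy chain and its partners were also compared as a ratio. In RNA the ratio of *Slc3a2* TPM to the summed TPM of *Slc7a5* and *Slc7a11* was 2.75, 2.91 and 3.15 in B6J mice, 1.95, 2.29 and 2.27 in B6J.*Gtpbp1*-/- and 1.97, 2.22 and 2.06 in B6J-*Gtpbp2*-/-. This shift came through *Slc7a5*, as *Slc7a11* rose less than *Slc3a2* in both mutants. In footprints the ratio was 1.44, 1.51 and 1.63 in B6J mice, 1.697, 1.31 and 1.17 in B6J.*Gtpbp1*-/- and 1.26, 1.26 and 1.17 in B6J-*Gtpbp2*-/-, so that B6J.*Gtpbp1*-/- overlapped B6J. Between the light chains, the TPM ratio of *Slc7a5* to *Slc7a11* was 4.50, 3.49 and 2.92 in B6J mice, 7.25, 5.47 and 6.03 in B6J.*Gtpbp1*-/- and 8.30, 6.86 and 6.84 in B6J-*Gtpbp2*-/-. The footprint ratio of B6J.*Gtpbp1*-/- (9.27 to 14.5) overlapped that of B6J (4.19 to 9.48), and that of B6J-*Gtpbp2*-/- (12.2 to 15.3) did not.

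Footprints relative to RNA, the translation efficiency (TE), were compared through the interaction of assay and genotype. In B6J.*Gtpbp1*-/-, 0 of 10 members were called, against 0.0% of 13086 genes tested. An unadjusted p below 0.05 was found for 1 member (*Slc7a3*), beside 1170 of all genes tested. DESeq2 called 58 genes and 0 members. In B6J-*Gtpbp2*-/-, 0 of 10 members were called, against 0.00773% of 12931 genes tested. An unadjusted p below 0.05 was found for 5 members, beside 1554 of all genes tested. DESeq2 called 160 genes, with *Slc7a3* and *Slc7a5* among those lower. The gene called by edgeR in B6J-*Gtpbp2*-/- was *Cacng3*, outside these lists and named after its value was seen. The median over members was -0.25 for B6J.*Gtpbp1*-/- and -0.47 in B6J-*Gtpbp2*-/-, beside 0.03 over all genes in both. *Slc7a3* had the lowest TE change, at -0.81 ± 0.278 in B6J.*Gtpbp1*-/- (adjusted p = 0.477) and -1.27 ± 0.264 in B6J-*Gtpbp2*-/- (adjusted p = 0.0944). The B6J-*Gtpbp2*-/- value was called by DESeq2 (-1.30, adjusted p = 0.00194) and by edgeR without B6J footprint library 3 (-1.40, adjusted p = 0.0367), and its adjusted p ranged from 0.00194 to 0.273 over the alternatives. *Slc7a5* stood at -0.70 ± 0.185 in B6J-*Gtpbp2*-/- (adjusted p = 0.204, and 0.0242 by DESeq2), within a range of 0.0242 to 0.46 over the alternatives. Without B6J footprint library 3 the genes called in TE numbered 174 in B6J.*Gtpbp1*-/- and 158 in B6J-*Gtpbp2*-/-, and with any 1 library left out the totals ran from 0 to 174 and from 0 to 158. Footprint density over TPM, which compares levels and not changes, was 2.00 for *Slc7a3* in B6J mice, 0.974 in B6J.*Gtpbp1*-/- and 0.708 in B6J-*Gtpbp2*-/-, while that of *Slc7a2* went from 1.45 in B6J to 1.79 in B6J-*Gtpbp2*-/-. TE here counts the retained-intron RNA of a gene as mRNA, and a fit with the protein-coding transcripts alone was not made for TE.

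The mutants were also compared with each other, which asks whether loss of one GTPase changes the transporters more than loss of the other. In RNA 0 of 10 members differed (edgeR, against 0.0595% of 25190 genes tested), 0 had an unadjusted p below 0.05, and DESeq2 called 46 genes and 0 members. The members' median log2 difference, B6J.*Gtpbp1*-/- over B6J-*Gtpbp2*-/-, was 0.05, beside -0.001 over all genes, and single members ranged from -0.29 (*Slc1a5*) to 0.22 (*Slc7a11*). *Slc7a3* RNA differed by -0.03 ± 0.133. For footprints 0 of 10 members were called (edgeR, against 0.0% of 14142 genes tested), but 5 had an unadjusted p below 0.05, namely *Slc7a3*, *Slc1a4*, *Slc6a9*, *Slc7a11* and *Slc3a2*, and DESeq2 called 100 genes and 0 members. All 5 log2 differences were positive. The median difference in footprints was 0.42, beside 0.001 over all genes, of which 1523 of 14142 had an unadjusted p below 0.05. Marker footprints differed between the mutants as well, with an unadjusted p below 0.05 and a positive difference for 4 of 4 fibroblast markers (median 1.34), 2 of 2 muscle markers tested (2.75), 5 of 7 granule neuron markers (0.61) and 3 of 5 microglia markers (0.56). Of these lists edgeR called 0, DESeq2 called *Col1a1*, *Col1a2*, *Lum* and *Acta1* higher, and their part in the difference was not tested. Purkinje cell markers went the other way in footprints (median -0.57, 4 of 5 below 0, 1 at an unadjusted p below 0.05, 0 called by edgeR or DESeq2), and in RNA 4 of 5 oligodendrocyte markers had an unadjusted p below 0.05 (median -0.43), with 0 called by edgeR and *Mobp* called lower by DESeq2. *Slc3a2* footprints were 1090, 699.6 and 1086 CPM in B6J.*Gtpbp1*-/- and 619, 625 and 683 CPM in B6J-*Gtpbp2*-/-. These ranges did not overlap, but the difference of 0.58 ± 0.194 did not pass (adjusted p = 0.357). For TE 0 of 10 members were called (edgeR, against 0.0% of 13292 genes tested), and DESeq2 called 155 genes and 0 members. An unadjusted p below 0.05 was found for 1 member (*Slc6a9*, 0.51 ± 0.214), beside 1483 of all genes tested. Without B6J-*Gtpbp2*-/- footprint library 3, 33 genes were called in footprints and 177 in TE, and without B6J.*Gtpbp1*-/- RNA library 1, 9 genes were called in RNA in place of 15.

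Other amino acid transporters and related carriers were called in both directions. Of 50 on a wider list, 43 were tested in RNA. In B6J.*Gtpbp1*-/- the calls were 6 higher and 6 lower, and in B6J-*Gtpbp2*-/- 2 higher and 4 lower, with medians of -0.01 and 0.02 beside 0.03 over all genes in each. Of all genes tested, 5.9% were higher and 7.93% lower in B6J.*Gtpbp1*-/- and 3.61% and 5.02% in B6J-*Gtpbp2*-/-. DESeq2 called 8 of the list higher and 6 lower in B6J.*Gtpbp1*-/-, and 5 higher and 7 lower in B6J-*Gtpbp2*-/-. *Slc43a3*, of a family of facilitative carriers, was scarce (0.556 to 1.84 CPM in B6J) and rose 3.08-fold in B6J.*Gtpbp1*-/- (adjusted p = 0.0113) and 3.33-fold in B6J-*Gtpbp2*-/- (adjusted p = 0.014). It is on the list through its family and is not an established amino acid carrier. *Slc38a7*, a glutamine transporter of neurons, rose 1.397-fold and 1.36-fold (adjusted p = 0.00486 and 0.0181). Other carriers fell in both mutants. *Slc1a3*, the glutamate transporter of Bergmann glia, fell by 0.45 and 0.44 on the log2 scale (adjusted p = 0.00911 and 0.0219). *Slc7a10*, a light chain that exchanges D-serine and small neutral amino acids in astrocytes, fell by 0.35 and 0.47 (adjusted p = 0.0121 and 0.0179). Further calls in B6J.*Gtpbp1*-/- included higher *Slc38a5* (log2 0.92), *Slc38a1* (0.36), *Slc6a15* (0.35) and *Slc6a6* (0.32), and lower *Slc7a4* (-0.49), *Slc36a1* (-0.41) and *Slc43a2* (-0.40). In B6J-*Gtpbp2*-/- the glycine transporter gene *Slc6a5* was lower as well (-0.38). In footprints, 0 of 38 were called in B6J.*Gtpbp1*-/- (edgeR, with 4 at an unadjusted p below 0.05, while DESeq2 called *Slc38a5* higher) and 1 of 39 in B6J-*Gtpbp2*-/-, the taurine transporter gene *Slc6a6* (log2 0.69 ± 0.165, adjusted p = 0.0371). Of all genes tested in footprints 0.573% were higher and 0.172% lower in B6J.*Gtpbp1*-/-, and 1.28% and 1.67% in B6J-*Gtpbp2*-/-, so that a single call among 39 does not set the list apart.

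Genes of the ATF4 response, which several members belong to as known targets, rose widely. Of 16 listed genes 15 were tested, *Ddit3* being left out because its symbol stands for 2 gene identifiers, and 14 were higher and 0 lower in RNA in each mutant (edgeR, with 15 at an unadjusted p below 0.05, and DESeq2 called 15 higher and 0 lower). Among all genes tested in RNA, 5.9% were higher and 7.93% lower in B6J.*Gtpbp1*-/-, and 3.61% and 5.02% in B6J-*Gtpbp2*-/- (edgeR). An unadjusted edgeR p below 0.05 was found for 6464 of 24577 and 5585 of 24859 genes. Median log2 fold changes of the listed genes were 2.14 in B6J.*Gtpbp1*-/- and 1.97 in B6J-*Gtpbp2*-/-. *Asns*, which makes asparagine, rose 4.42-fold and 3.93-fold (adjusted p = 1.79e-08 and 1.11e-05). *Chac1*, which breaks down glutathione, rose 7.95-fold and 7.62-fold, and *Sesn2*, a leucine sensor, 7.901-fold and 7.12-fold. The mitochondrial folate enzyme genes *Shmt2* (4.41-fold and 4.298-fold) and *Mthfd2* (5.43-fold and 5.91-fold) rose as well. In footprints edgeR called 11 of 15 higher in B6J.*Gtpbp1*-/- and 14 of 15 in B6J-*Gtpbp2*-/-, against 0.573% and 1.28% of all genes tested, and 0 lower in either (14 and 15 at an unadjusted p below 0.05, while DESeq2 called 12 and 14 higher and 0 lower). Among 21 genes of arginine and proline metabolism, the RNA calls were 5 higher, 4 lower and 12 not called in B6J.*Gtpbp1*-/- (median -0.09) and 3 higher, 2 lower and 16 not called in B6J-*Gtpbp2*-/- (median -0.13), beside a median of 0.03 and the shares of all genes given above. DESeq2 called 5 higher and 5 lower in B6J.*Gtpbp1*-/-. In B6J-*Gtpbp2*-/- it called 6 higher and 3 lower, *Odc1* and *Azin2* among them. The proline synthesis genes *Pycr1* (5.097-fold and 4.93-fold) and *Aldh18a1* (2.82-fold and 2.61-fold) and the arginine synthesis gene *Ass1* (2.18-fold and 2.27-fold) rose in both mutants. *Ddah2*, which degrades methylated arginine, fell by 0.91 and 0.86 on the log2 scale (adjusted p = 1.68e-05 and 0.000496). In B6J.*Gtpbp1*-/- *Odc1*, the first enzyme of polyamine synthesis, was higher (0.48) and *Gamt*, of creatine synthesis, lower (-0.81). Further calls, named after their values were seen, included higher *Rars* and lower *Azin2* in B6J.*Gtpbp1*-/- and lower *Oat* in B6J-*Gtpbp2*-/-. Footprints of *Pycr1* and *Aldh18a1* rose in both mutants, with *Nos1* lower in B6J.*Gtpbp1*-/- and *Nos3* higher in B6J-*Gtpbp2*-/-.

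The RNA profiles closest to that of *Slc7a3* over the 9 RNA libraries, by Euclidean distance between log2 CPM minus the B6J mean among 26202 genes, were those of *Cox6a2* (0.958), *Stc2* (1.04), *Trib3* (1.54), *Cst7* (1.73) and *Miox* (1.85). *Stc2*, a secreted glycoprotein gene, was at 2.75, 2.07 and 1.55 CPM in the B6J libraries, 42.6, 47.1 and 59.1 in B6J.*Gtpbp1*-/- and 26.3, 51.3 and 49.7 in B6J-*Gtpbp2*-/-. *Cox6a2*, a cytochrome oxidase subunit gene best known from muscle, was at 0.32, 0.194 and 0.397 CPM in the B6J libraries, 7.57, 8.58 and 9.41 in B6J.*Gtpbp1*-/- and 6.72, 11.4 and 9.41 in B6J-*Gtpbp2*-/-. *Trib3*, a pseudokinase gene of the ATF4 response, was at 0.384, 0.626 and 0.934 CPM in the B6J libraries, 27.3, 24.5 and 20.2 in B6J.*Gtpbp1*-/- and 18.2, 21.4 and 21.5 in B6J-*Gtpbp2*-/-. These 3 genes were chosen by the same 9 RNA libraries, so mutant values far above B6J, as for *Slc7a3*, follow from the choice. *Cst7* and *Miox* had at most 0.0994 and 0.0216 CPM in B6J, close to 0, so no fold change is given for them.

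Position and coding sequence were compared next. The members lie on 9 chromosomes, with *Slc7a2* and *Slc7a5* both on chromosome 8 (GRCm38, chr8:40862396-40922308, plus strand, and chr8:121881150-121907694, minus strand), *Slc7a3* at chrX:101079210-101086020 (minus strand) and *Slc7a1* at chr5:148327410-148399904 (minus strand). Sequences were aligned within families. The CDS of *Slc7a1* and *Slc7a2* were identical at 75.8%, with a longest identical run of 23 bases. Those of *Slc7a1* and *Slc7a3* were identical at 74.2% of 1661 aligned bases, with a longest identical run of 16 bases, and those of *Slc7a2* and *Slc7a3* at 74.6%, with a longest run of 14 bases. *Slc1a4* and *Slc1a5* shared 76.2% and a run of at most 20 bases. Exons of the members were shared with genes on the other strand for *Slc6a9* (363 of 2142 CDS bases with *Ccdc24*, 66 with *Gm17114* and 0 with *B4galt2*) and for *Slc7a2* (0 of 2162 CDS bases, with *Gm26584*). The AGA codon, which the arginine tRNA mutated in B6J reads, occurred 4 times in *Slc7a1*, 11 times in *Slc7a2*, 6 times in *Slc7a3*, 5 times in *Slc7a11*, 3 times in *Slc38a2*, 2 times in *Slc7a5* and 1 time each in *Slc3a2*, *Slc1a4*, *Slc1a5* and *Slc6a9*, beside a median of 4 over 21526 genes. The members are longer than most genes (502 to 674 codons, median of all genes 396). Per 1000 codons, *Slc7a2* had 16.3 AGA codons, *Slc7a11* 9.96, *Slc7a3* 9.71 and *Slc7a1* 6.43, beside a median of 11.2, so *Slc7a2* alone among the members stood above it. Codon counts and alignments used the longest annotated CDS of each gene, which need not be that of its leading transcript. For *Slc7a2* it was that of Slc7a2-204, whereas Slc7a2-203 held 79.3 ± 5.29% of the gene's TPM in B6J.

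Because most members rose together, their promoters were read from RefSeq (GRCm38.p6, from 250 bases before to 50 after a gene's start) and searched on both strands for TGATGNAA, a core shared by many ATF4 binding elements. Windows were found for *Slc7a1*, *Slc1a4*, *Slc38a2*, *Slc6a9*, *Slc7a11* and *Slc3a2*, 6 of 10 members. Of these 6, *Slc7a11* held 2 matches and *Slc1a4* 1, while 1219 of 27025 genes with a window (4.51%) and 1304 of 32851 windows (3.97%) held the core. The matches, with the core in capitals, lie in windows of genes on the minus strand, at chr3:50443661-50443690, chr3:50443642-50443671 and chr11:20332699-20332728, and a match of these letters is not evidence of binding.
Slc7a11, core on the gene's strand: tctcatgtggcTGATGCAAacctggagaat
Slc7a11, core on the opposite strand: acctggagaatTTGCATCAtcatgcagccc
Slc1a4, core on the opposite strand: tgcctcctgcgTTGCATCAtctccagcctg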

How the data were processed

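Ribosome footprints and RNA were sequenced from cerebella of 3 mice per genotype and assay. For RNA, the authors ran kallisto 0.42.4 on Gencode M20 transcripts and deposited estimated counts and TPM per transcript, which were summed per gene here and, for estimated counts, rounded. For footprints, the authors removed rRNA reads with Bowtie2 2.2.3, mapped the rest to mm10 with HISAT2 2.1.0 and deposited raw counts per gene on the CDS from featureCounts. The 9 RNA and 9 footprint libraries held the depths given above, and no library was left out.

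Genes reaching 5 counts in 3 or more of the 6 libraries were fitted with edgeR 4.0.16 (R 4.3.3, TMM scaling, robust quasi-likelihood F test), and p was adjusted over all genes tested by Benjamini-Hochberg, called at 0.05 or below. TE was the interaction of assay and genotype over 12 libraries, for genes reaching 10 counts in 3 libraries of each assay, histone genes left out. CPM were scaled by TMM. Alternatives were DESeq2 1.42.0, limma 3.58.1 on log2 TPM (pseudocount 0.5), other scaling and filters, fits over all libraries, a transcript length offset, protein-coding transcripts alone, a covariate for Y-linked reads, the replicate number as a block, and leaving out each library. The fits were also run on simulated data, which are not reported here and on which no result here rests. Tables and figures were made with pandas 2.3.3 and matplotlib 3.10.9 in Python 3.11.15.

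The members and lists were chosen with earlier results of these data known. Genes named are the 10 members, *Gtpbp1* and *Gtpbp2*, other transporters called in RNA in either mutant (at most 20), the 6 genes of smallest p in RNA from each of the lists of ATF4 response and arginine enzymes, the 5 RNA profiles nearest to *Slc7a3*, and the most abundant marker of each cell type. Genes beyond this rule were named after their values were seen. Some genes that the rule or the lists cover are not reported here.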

Additional observations from a re-analysis of the deposited data

How the results depend on the processing

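No called change of a member or of another gene named under the rule given above reversed sign in any alternative. Genes named after their values were seen are not covered by this statement or by the counts that follow. Of 1410 member values 1369 kept their call, 24 were weaker and 17 stronger, and of 5626 values of the other named genes 5444 kept theirs. Genes called by other settings were as follows, and the cause of each shift was not tested. For RNA in B6J.*Gtpbp1*-/- (3398 called), the transcript length offset gave 2227 and limma on log2 TPM 2156. For RNA in B6J-*Gtpbp2*-/- (2146), DESeq2 gave 3409, the Y-linked covariate 1071, the length offset 1363 and limma 971. For footprints in B6J.*Gtpbp1*-/- (104), DESeq2 gave 406, no filter on low counts 213, all 9 libraries 202 and the Y-linked covariate 56. For footprints in B6J-*Gtpbp2*-/- (406), DESeq2 gave 655, all 9 libraries 268 and the Y-linked covariate 45, with 3 members higher in place of 5. For TE, DESeq2 gave 58 in B6J.*Gtpbp1*-/- (0 by edgeR), and in B6J-*Gtpbp2*-/- (1) DESeq2 gave 160, with 2 members lower, no filter 2 and all 18 libraries 5. Between the mutants, RNA (15) gave 46 by DESeq2, 36 with no filter, 9 with the Y-linked covariate and 5 with protein-coding transcripts alone, footprints (0) gave 100 by DESeq2, 3 with upper quartile scaling, 15 with no filter and 1 with all 9 libraries, and TE (0) gave 155 by DESeq2. Upper quartile scaling and limma on log2 TPM moved the share of higher calls from 42.6% to 54.9% and 75.2% in B6J.*Gtpbp1*-/- RNA and from 41.8% to 53.3% and 77.2% in B6J-*Gtpbp2*-/- RNA. In footprints of B6J.*Gtpbp1*-/- DESeq2 moved it from 76.9% to 61.8%, the Y-linked covariate to 87.5%, and leaving out B6J footprint library 3 to 47.8% (89 higher and 97 lower, beside 80 and 24), as more genes were called lower. Footprints of B6J-*Gtpbp2*-/- had 176 higher and 230 lower calls. Higher calls outnumbered lower ones with the Y-linked covariate (25 and 20) and without B6J library 2 (96 and 90). They also did so without B6J-*Gtpbp2*-/- library 1 (55 and 51), 2 (83 and 68) or 3 (155 and 138). limma on log2 TPM shifted the median of all genes to 0.162 and 0.15.

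The replicate numbers do not pair the libraries. Correlations of same-numbered libraries ran from -0.045 to 0.089 in RNA and from -0.26 to 0.097 in footprints, and Y-linked reads were high in 1 assay and low in the other for B6J number 1 and B6J.*Gtpbp1*-/- number 2, while the other 7 same-numbered pairs were alike. With the replicate block, 2237 genes were called in RNA and 44 in footprints of B6J.*Gtpbp1*-/- (40 higher), 0 in TE of B6J-*Gtpbp2*-/- and 1 in footprints between the mutants. Among the members the block changed the calls of *Slc6a9* RNA (adjusted p = 0.0793) and *Slc3a2* footprints (0.0534) in B6J.*Gtpbp1*-/- and *Slc38a2* footprints (0.0313) in B6J-*Gtpbp2*-/-.

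With 1 library left out, genes called in B6J.*Gtpbp1*-/- ran from 1890 to 3798 in RNA, 22 to 186 in footprints and 0 to 174 in TE, with 7 to 8 members higher in RNA and 2 to 5 in footprints. In B6J-*Gtpbp2*-/- they ran from 953 to 2357 in RNA, 106 to 619 in footprints and 0 to 158 in TE, with 7 to 8 members higher in RNA, 3 to 6 in footprints and 0 to 1 lower in TE. Between the mutants they ran from 9 to 17 in RNA, 0 to 33 in footprints and 0 to 177 in TE.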

Other observations

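Each group held 3 mice per assay, and RNA and footprints came from different batches. Bulk cerebellum does not show which cells carry each transporter, and some markers of granule neurons, Purkinje cells, astrocytes, microglia and endothelium in both mutants, and of oligodendrocytes and red blood cells in B6J.*Gtpbp1*-/-, were called in RNA. Transporter protein and amino acid uptake were not analysed here. Estimates per transcript depend on the annotation, those of *Slc7a3* included, and footprint calls of *Slc1a4* and *Slc3a2*, and of *Slc7a5* in B6J.*Gtpbp1*-/-, depended on single libraries, as did the RNA call of *Slc6a9*.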
